A study of Mus musculus with 24 samples.

Results

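The 85 genes described here encode the proteins of the cytosolic ribosome. They were taken from the 37991 genes of the count table as the protein-coding genes whose symbol in GENCODE M1 begins with Rpl, Rplp, Rps or Rpsa in the manner of a ribosomal protein, without the Rps6k kinases and without names that carry the pseudogene mark. Of the 85 genes, 51 are named for the large subunit and 34 for the small subunit, and they lie on 19 chromosomes. A symbol is all that the rule reads, so the 85 include Rps19bp1, which encodes a nucleolar protein that binds Rps19 and is not itself part of the ribosome. They also include Rpl7l1, a nucleolar relative of Rpl7 that takes part in ribosome assembly. Of the 85, 82 passed the filter on low counts that left 14918 of all genes for testing. The filter kept genes that reached 1 CPM (1 count per 1000000 counts of the library) in 12 or more of the 24 samples. Rpl3l, Rpl10l and Rpl39l did not pass it.

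The samples were mammary tumors or glands of female mice of the FVB/N background. PyMT mice were heterozygous for a transgene that expresses the polyoma virus middle T antigen from the MMTV promoter, and FVB mice of the same ages without the transgene were the controls. Tissue of 3 PyMT and 3 FVB mice was sequenced at each of week 6, called hyperplasia in PyMT mice, week 8, called adenoma/MIN, week 10, called early carcinoma, and week 12, called late carcinoma, which makes 24 samples in 8 groups. The authors depleted total RNA of ribosomal RNA, sequenced directional libraries and deposited raw counts per gene. The sum of the counts lay between 6969375 and 13516601 per sample.

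The ribosome translates mRNA into protein with a small subunit that reads the codons and a large subunit that joins the amino acids. Each subunit holds 1 copy of nearly all of its proteins, and growing cells make more of them. Many of their mRNAs begin with a run of pyrimidines, the 5′ terminal oligopyrimidine tract, through which the growth kinase mTOR controls their translation. A small number of the genes have a paralog with a narrower pattern of expression, and many have processed pseudogenes of nearly the same sequence elsewhere in the genome.

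The sequence around the start of transcription is shown for 9 genes on which the results below turn or that differ most in the length of the run. Each window holds 15 bases before and 15 bases after a position where a RefSeq model of the gene begins on GRCm38.p6, written 5′ to 3′ on the gene's own strand. Capitals mark a pyrimidine run, taken as a C followed by at least 4 bases that are C or T, of which the first lies within 5 bases of the annotated start. These windows are on a later build than mm9, on which the authors aligned, and no coordinate was carried from one to the other.
Rpl27a (chr7:109519180-109519209, + strand): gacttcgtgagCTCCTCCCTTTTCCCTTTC
Rpl13a (chr7:45128731-45128760, - strand): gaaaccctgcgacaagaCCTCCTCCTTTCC
Rpl7a (chr2:26910792-26910821, + strand): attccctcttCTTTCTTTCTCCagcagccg
Rps24 (chr14:24490663-24490692, + strand): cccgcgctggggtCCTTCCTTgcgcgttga
Rps9 (chr7:3704026-3704055, + strand): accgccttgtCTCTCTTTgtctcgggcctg
Rps27l (chr9:66946071-66946100, + strand): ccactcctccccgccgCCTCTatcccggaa
Rpl23 (chr11:97782425-97782454, - strand): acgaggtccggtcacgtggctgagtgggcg
Rplp0 (chr5:115559452-115559481, + strand): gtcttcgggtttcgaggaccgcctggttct
Rpl36al (chr12:69184053-69184082, - strand): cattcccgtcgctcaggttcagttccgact

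In Rpl27a the run reached 20 bases, the longest among the matched genes, and like that of Rpl13a it went past the end of the window. The runs of Rpl13a, Rpl7a, Rps24, Rps9 and Rps27l were 14, 12, 8, 8 and 5 bases long, and the windows of Rpl23, Rplp0 and Rpl36al held none. Rps24 and Rps27l each have 2 starts in RefSeq, of which the one with the longer run is shown. At the other start the longest stretch was 2 bases, which is no run here. Of the 63 ribosomal protein genes with a start in RefSeq's table, 29 (46.0%) had such a run at 1 start or more, and so had 21.2% of all 27025 genes listed there. Counted by windows of this length, the run stood in 31 of 75 windows of ribosomal protein genes (41.3%) and in 18.3% of 32851 windows of all genes. The motif was searched on the transcribed strand only, and an annotated start can differ from the one used in the mammary gland. In the PyMT against FVB comparison taken up below, the median log2 fold change was 0.63 over the 29 genes with the run and 0.72 over the 31 tested genes without it.

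The ribosomal protein genes together took a larger share of the counts in PyMT than in FVB samples at every week. At week 6 they held 1.50%, 1.41% and 1.57% of all counts in the 3 PyMT samples and 0.595%, 1.04% and 1.01% in the 3 FVB samples. At week 8 the shares were 1.61%, 1.45% and 1.64% in PyMT against 0.564%, 0.978% and 0.995% in FVB. The lowest PyMT sample of these weeks was above the highest FVB sample. At week 10 they were 1.83%, 1.65% and 1.57% in PyMT against 0.839%, 0.808% and 0.571% in FVB, and at week 12 they were 1.53%, 1.59% and 1.60% in PyMT against 0.604%, 0.905% and 0.715% in FVB. The groups did not overlap at either of the later weeks, and the FVB samples were more spread than the PyMT samples at every week. Over all weeks the share was 1.58% ± 0.107 (SD, n = 12) in PyMT and 0.802% ± 0.186 (SD, n = 12) in FVB, a ratio of 1.97. Scaled by TMM, which sets the bulk of genes equal between samples, the same sum came to 1.43% and 0.880%, a ratio of 1.62.

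**Figure D1:**
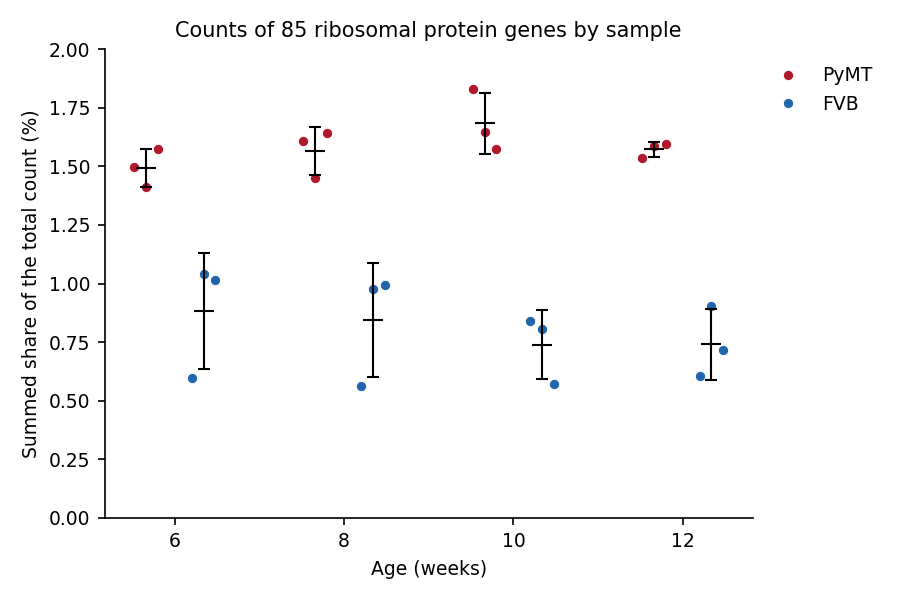
Summed share of the total count held by the 85 ribosomal protein genes (vertical axis, percent) at each age in weeks (horizontal axis), with a point for each of 24 samples and bars for the group mean ± SD (n = 3). All 12 PyMT samples lie at 1.41% or more and all 12 FVB samples at 1.04% or less.

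In bulk tissue, fewer cells of a type and less RNA per cell cannot be told apart, and the make-up of the tissue moved with genotype. Summed normalized counts (counts over DESeq2's size factors) of 8 luminal epithelial markers ran from 21161 to 40310 in PyMT and from 4341 to 19108 in FVB samples, and those of 8 adipocyte markers from 1829 to 18416 in PyMT and from 51490 to 143523 in FVB samples. The 6 proliferation markers summed to between 6783 and 12388 in PyMT and between 632 and 6922 in FVB, the 7 fibroblast markers to between 25640 and 50939 in PyMT and between 53187 and 197490 in FVB, and the 6 endothelial markers to between 718 and 2109 in PyMT and between 5408 and 9399 in FVB. None of the luminal, adipocyte, fibroblast and endothelial markers was at 0 in any sample, and up to 2 of the 6 proliferation markers were at 0 in an FVB sample. The 8 macrophage markers overlapped, at 2702 to 7040 in PyMT against 3080 to 8519 in FVB, with none at 0. The 12 lymphocyte markers ran from 64.1 to 199 in PyMT and from 251 to 2213 in FVB, with up to 11 of 12 at 0 in a PyMT sample and up to 10 of 12 in an FVB sample. By the mean of their log2 levels they overlapped, at 0.60 to 2.27 in PyMT and 1.29 to 3.16 in FVB. The 5 erythroid markers ran from 340 to 1805 in PyMT and from 1759 to 9518 in FVB, with at most 2 at 0. Since luminal, adipocyte, fibroblast and endothelial markers did not overlap between PyMT and FVB, genotype and tissue make-up cannot be told apart in any comparison of ribosomal protein genes between them.

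Within FVB some of the marker lists moved with the share of ribosomal protein counts. The 12 FVB samples, from the lowest share to the highest, were week 8 replicate 1, week 10 replicate 3, week 6 replicate 1, week 12 replicates 1 and 3, week 10 replicates 2 and 1, week 12 replicate 2, week 8 replicates 2 and 3, and week 6 replicates 3 and 2. In that order the mean log2 level of the proliferation markers was 4.89, 4.75, 6.57, 5.85, 6.21, 7.49, 6.62, 7.86, 7.89, 8.78, 8.66 and 9.50, that of the luminal markers 9.09, 8.63, 9.57, 9.25, 9.76, 9.94, 9.71, 10.68, 10.00, 10.56, 10.30 and 10.27, and that of the adipocyte markers 13.35, 13.20, 12.42, 13.19, 13.52, 13.21, 13.10, 12.75, 12.37, 12.81, 12.59 and 11.95. Samples with a higher share thus tended to have more proliferation and luminal and less adipocyte marker RNA. In PyMT the proliferation level lay between 9.48 and 10.43, with 10.11 in the sample of the lowest share and 9.98 in that of the highest. Skeletal muscle markers stood apart in 7 libraries, 3 of PyMT and 4 of FVB, and 3 of the 4 FVB libraries with the lowest shares were among them. In the 4 FVB libraries rich in skeletal muscle markers the share was 0.571% to 1.04%, and in the other 8 FVB libraries it was 0.564% to 1.01%. The part of these marker lists in the shares was not tested.

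Per length of mRNA the genes covered a wide range. Each level was taken as the TMM-scaled CPM per kilobase of 1 coding transcript and averaged over the 24 samples. In some genes that transcript is much longer than its coding part, as in Rps15a (3721 and 393 bases) and Rps3 (1908 and 732 bases). The levels and their order therefore depend on the transcript taken. The 5 highest were Rps24 at 763, Rplp1 at 759, Rplp0 at 599, Rps9 at 588 and Rpl8 at 553 CPM per kilobase. Rplp0 alone held 7.13% of the summed counts of the 85 genes. Rpl4 (5.71%) and Rpsa (4.85%) came next by share of these counts but ranked 8 and 19 per kilobase. Rps24 is a small subunit protein whose gene is mutated in Diamond-Blackfan anemia, and its level was 927 ± 103 in PyMT and 599 ± 76.7 in FVB (SD, n = 12 each). Rplp1 stood at 899.9 ± 121 and 619 ± 105, Rplp0 at 755 ± 64.3 and 443 ± 108, Rps9 at 697 ± 73.6 and 479 ± 89.2, and Rpl8 at 687 ± 89.0 and 419 ± 51.4 CPM per kilobase in PyMT and FVB. Within each genotype, neighbours in this order differed by less than the larger of their SDs, except Rplp1 and Rplp0. At the other end stood Rpl37 at 8.81, Rpl3l at 8.34, Rps2 at 7.64, Rps13 at 6.70, Rps4y2 at 3.87, Rpl29 at 2.77 and Rpl39l at 1.53 CPM per kilobase, and Rpl10l had no count in any of the 24 samples.

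The counts of ribosomal protein genes depend on how reads from near-identical copies were handled. Of the stretches of 50 bases of each mRNA, a median of 59.8% were found again elsewhere in the genome, with a range from 0% to 99.7%, whereas the median over 13393 tested protein-coding genes was 0%. More than 50% of the stretches were found elsewhere in 48 of the 85 genes (3.80% of the tested protein-coding genes) and more than 90% in 13 of the 85. Rps27 (99.7%), Rps12 (98.1%), Rpl23a (94.5%) and Rpl7a (93.1%) were among the most repeated, and Rps3 (3.44%) and Rpl8 (7.87%) among the least. Across the 85 genes, which share the same libraries and are not independent, the level per kilobase had a Spearman correlation of -0.05 with this percentage, and across the 82 tested genes the log2 fold change of PyMT over FVB had one of 0.14. The read length is not given in the sources used here, and with stretches of 100 bases the median was 42.2%, 38 genes were over 50% and the correlation with the level was -0.22. Of the 48 tested genes over 50%, 38 were called higher in PyMT and the median log2 fold change was 0.73. Of the 34 others 28 were called higher and 1 lower, and their median was 0.62. Exons overlap those of another gene on the opposite strand over 66.2% of Rpl35, 59.7% of Rpl23a and 24.3% of Rpl5, and on the same strand over 41.3% of Rpl13a, and whether the authors counted by strand is not given in the sources used here. Values of the repeated and the overlapping genes are therefore uncertain. The 155 genes whose symbols carry the pseudogene mark, none of them among the 85, held 0.109% to 0.176% of the counts in PyMT and 0.0524% to 0.117% in FVB samples.

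**Figure D2:**
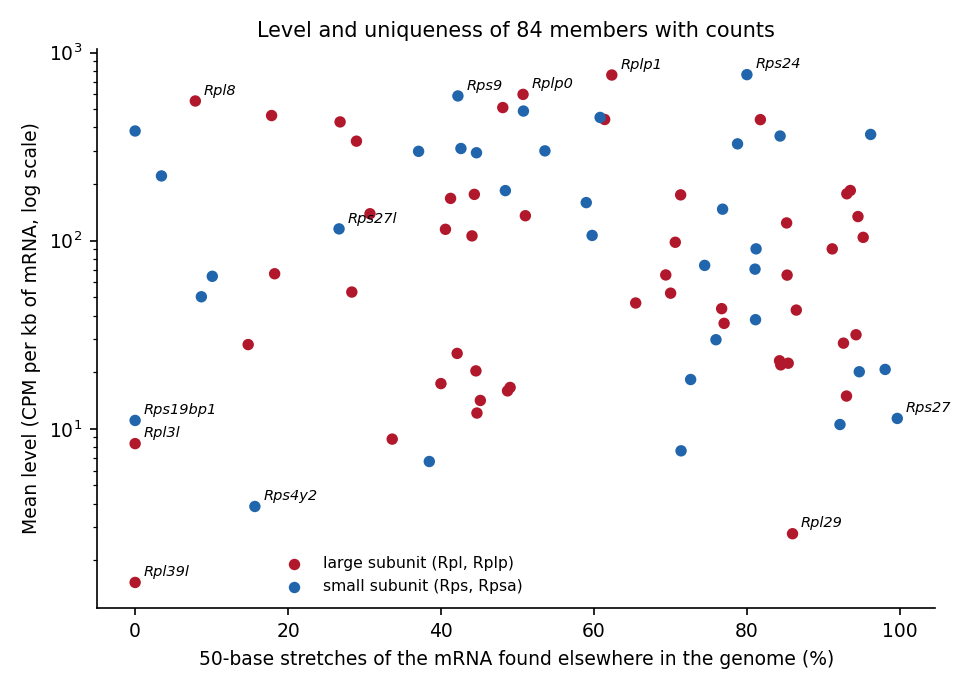
Mean level over 24 samples (vertical axis, TMM-scaled CPM per kilobase of mRNA, log scale) against the percentage of 50-base stretches of the mRNA found elsewhere in the genome (horizontal axis) for the 84 genes with a count, with large subunit genes in red and small subunit genes in blue. Rpl8 combines a high level with few repeated stretches, and Rps27, at 99.7%, has a level near 10 CPM per kilobase.

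Taken over the 4 weeks with equal weight, ribosomal protein genes were higher in PyMT than in FVB. Of the 82 tested genes, 66 had an adjusted p under 0.05 (Benjamini-Hochberg over all 14918 genes, from edgeR's quasi-likelihood test of the 24 samples after TMM scaling) and were higher, beside 23.6% of all tested genes. Only Rps4y2 was called lower, beside 27.4% of all tested genes, and it passed the filter only with FVB samples, where it was higher. The median log2 fold change was 0.67, which is 1.60-fold, with quartiles of 0.50 and 0.89, and the median over all genes was -0.03. The interquartile range was 0.39 for the 82 genes and 1.18 for all genes. The large subunit had 42 of 48 genes higher and a median of 0.73, and the small subunit 24 of 34 higher, 1 lower and a median of 0.59. Summed counts of large over small subunit genes gave a ratio of 1.30 ± 0.0357 in PyMT, from 1.24 to 1.37, and of 1.24 ± 0.0545 in FVB, from 1.12 to 1.30 (SD, n = 12 each), so the ratios overlapped. In 25 of the 82 genes every PyMT sample was above every FVB sample (4.67% of all genes), and in Rps4y2 every PyMT sample was below (7.22% of all genes). Without TMM, by library size only, the median of all genes moved to 0.26 and that of the 82 genes to 0.95, with 70 genes higher and 1 lower.

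**Figure D3:**
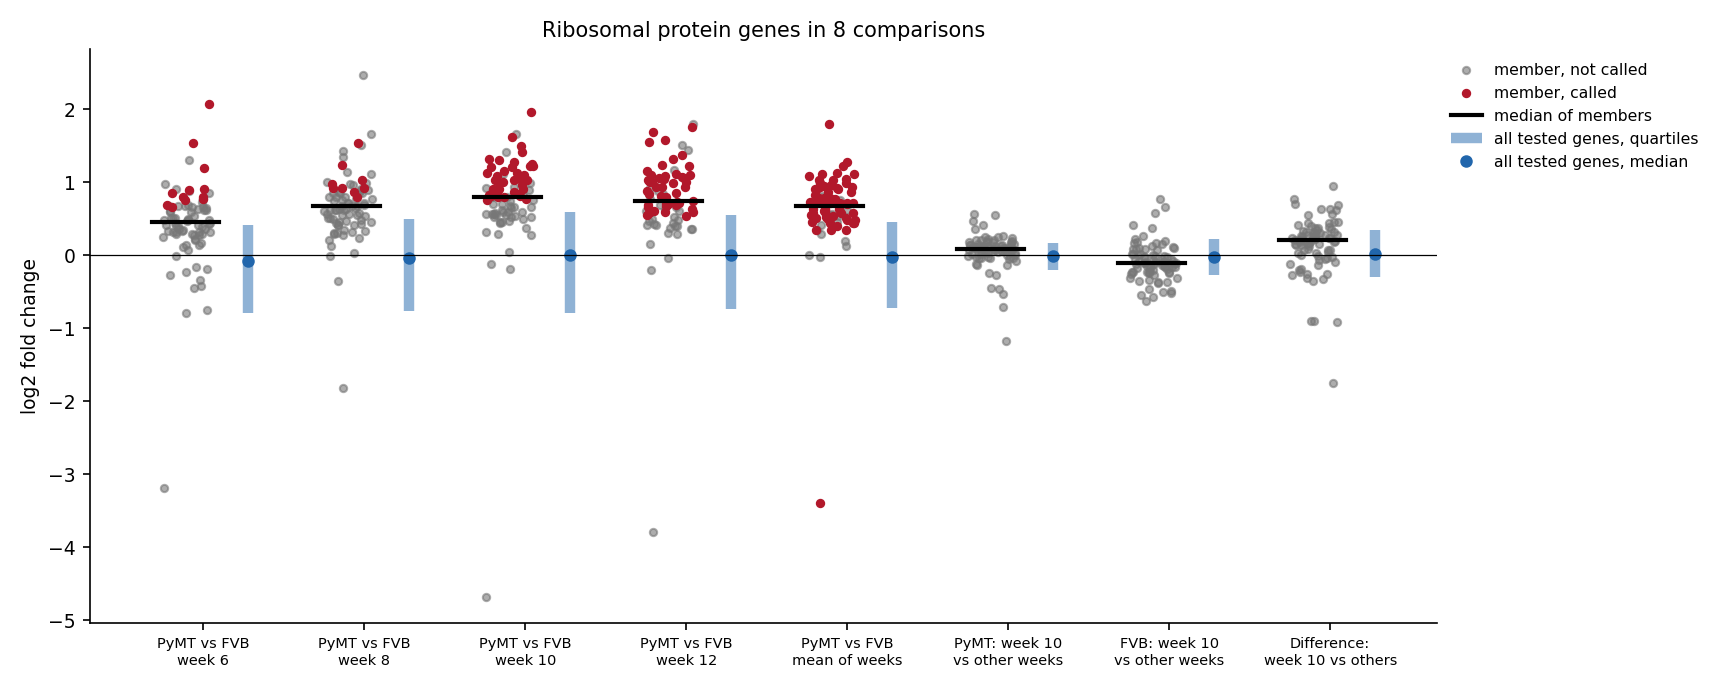
Log2 fold change (vertical axis) of the 82 tested ribosomal protein genes in 8 comparisons (horizontal axis), with called genes in red, other genes in gray, a black line at their median, and blue bars and dots for the quartiles and median of all 14918 tested genes. The medians run from 0.45 to 0.81 in the PyMT against FVB comparisons of single weeks, and no gene is called in the 3 comparisons of week 10 with the other weeks. The lowest point of each PyMT against FVB comparison is Rps4y2.

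At the single weeks, ribosomal protein genes were again higher in PyMT, with no gene called lower. At week 6, 12 genes were higher and 0 lower (4.82% and 7.06% of all genes), with a median log2 fold change of 0.45, 1.37-fold, beside -0.08 over all genes. At week 8, 9 were higher and 0 lower (4.34% and 6.86% of all genes), with a median of 0.67, 1.59-fold, beside -0.04. At week 10, 37 were higher and 0 lower (6.27% and 9.91% of all genes), with a median of 0.81, 1.75-fold, beside 0.01. At week 12, 48 were higher and 0 lower (12.5% and 15.3% of all genes), with a median of 0.74, 1.67-fold, beside 0.00. The fold change was above 0 in 71, 79, 79 and 79 of the 82 genes at the 4 weeks. All 3 PyMT samples were above all 3 FVB samples in 41, 52, 52 and 63 genes at weeks 6, 8, 10 and 12, beside 16.2%, 18.4%, 18.9% and 21.5% of all genes. They were below in 1 gene at each week, beside 20.4%, 21.7%, 21.6% and 25.2% of all genes. The counts of single weeks moved with single libraries. How far the calls among all genes moved under the alternatives is given at the end. Leaving out 1 sample left 2 (without PyMT replicate 1) to 7 (without FVB replicate 1) genes called at week 6. At week 8 it left 0 without PyMT replicate 1, with 23 genes at an unadjusted p under 0.05, 1 without PyMT replicate 3 or FVB replicate 2, 3 without FVB replicate 3 and 5 without PyMT replicate 2, while the DESeq2 Wald test on all 6 samples called 25 and the fit of all 24 samples 31. At week 10 it left 16, 20 and 17 without PyMT replicates 1, 2 and 3 and 23 and 24 without FVB replicates 1 and 2, and at week 12 it left 27, 28 and 27 without PyMT replicates 2 and 3 and FVB replicate 3. Without the 7 libraries rich in skeletal muscle markers, which leaves 1 sample a genotype at week 6, the counts were 0, 30, 32 and 27 at the 4 weeks (edgeR, 1 fit over the 17 kept samples, the lone ones assumed to vary like the rest), beside 20, 31, 46 and 41 in the same fit of all 24 samples. None of the 7 was a week 8 sample. At week 6 there were 10 genes at an unadjusted p under 0.05 without them, and the median was 0.52.

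A set of 5 genes were called higher at every week, among them Rpl7a, Rpl13a, Rpl23 and Rps14. A further 10 genes were called at 3 weeks, 18 at 2, 20 at 1 and 29 at none. The same tally was not made over all genes, so it does not show how unusual these numbers are. Rpl7a (ENSMUSG00000062647) is a large subunit gene on chromosome 2 of mm9, from 26766284 to 26768838 on the plus strand, whose introns host small nucleolar RNAs. Its normalized counts were 2192, 1936 and 1938 in PyMT against 855, 930.2 and 848 in FVB at week 6, and 1866, 1782 and 1702 in PyMT against 600.5, 785 and 909 in FVB at week 8. They were 2135, 1875 and 1869.7 in PyMT against 903, 731 and 1327 in FVB at week 10, and 1825, 1733 and 1781 in PyMT against 849, 833 and 901 in FVB at week 12. The highest FVB sample, week 10 replicate 3, stayed below the lowest PyMT sample, week 8 replicate 3. The log2 fold change over the weeks was 1.13 (SE 0.09, edgeR adjusted p = 1.18e-09), and it was 1.20, 1.23, 1.04 and 1.10 at the single weeks (SE 0.16, 0.20, 0.24 and 0.14). The mRNA of Rpl7a was found elsewhere over 93.1% of its stretches, so its counts are among the uncertain ones.

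Rpl13a, Rpl23 and Rps14 showed the same separation. Rpl13a, a large subunit protein that can leave the ribosome and repress translation after interferon-gamma, ranged from 4389 to 5770.0 normalized counts in PyMT (median 4855) and from 1983 to 3167 in FVB (median 2504). Rpl23, a large subunit protein that also binds the p53 ligase Mdm2, ranged from 1721 to 2588 in PyMT (median 2195) and from 793 to 1337 in FVB (median 1026). For both, no FVB sample of any week reached a PyMT sample. Rps14, a small subunit protein lost in a human myelodysplastic syndrome, ranged from 1939.8 to 2804 in PyMT (median 2269) and from 907 to 1491 in FVB (median 1186), again with no overlap. The log2 fold changes over the weeks were 1.00 for Rpl13a (SE 0.09, adjusted p = 7.63e-09), 1.03 for Rpl23 (SE 0.09, adjusted p = 3.91e-09) and 0.95 for Rps14 (SE 0.09, adjusted p = 2e-08) by edgeR. Rpl13a has a pyrimidine run at its start and Rpl23 has none, as printed above.

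Among single weeks, the largest increases past the threshold included the following. At week 6 they included Rps27l (log2 fold change 2.08), Rpl36al (1.53), Rpl7a (1.20) and Rpl32 (0.90). At week 8 they were Rpl36al (1.54), Rpl7a (1.23), Rps14 (1.03), Rpl13a (0.98) and the X-linked Rps4x (0.93). At week 10 they were Rps27l (1.96), Rps16 (1.62), Rpl23a (1.50), Rpl35a (1.41) and Rps7 (1.32). At week 12 they were Rps27l (1.76), Rpl17 (1.69), Rps27a (1.59), Rpl27 (1.56) and Rps13 (1.38). The adjusted p (edgeR) lay between 0.00141 and 0.0456 for all of them. Rps27l, Rpl23a, Rps7 and Rpl17, and Rpl7a at week 6, passed the threshold in all 6 fits that left out 1 sample of the week, and each of the others missed it in at least 1 of these fits. Rps16, whose tail reaches toward the transfer RNA in the small subunit, had 637, 636 and 668 normalized counts in PyMT and 347, 409.6 and 439 in FVB at week 6, and 907, 457 and 722 in PyMT against 351, 202 and 147 in FVB at week 10. Rpl17, which lies at the exit tunnel of the large subunit, had 282, 299 and 181 normalized counts in PyMT and 68.6, 76.9 and 97.3 in FVB at week 12. The groups did not overlap in either gene at these weeks.

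**Figure D4:**
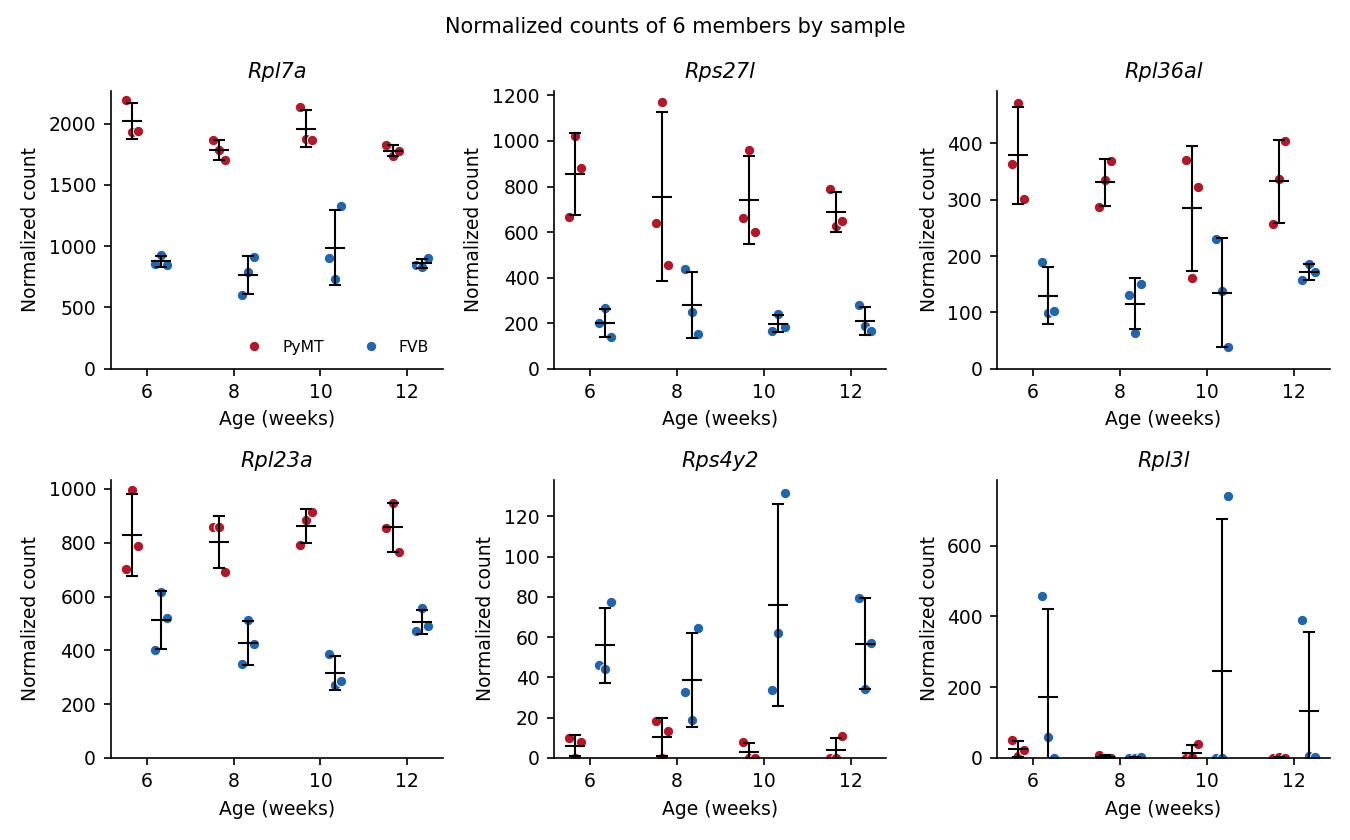
Normalized counts (vertical axes, counts over DESeq2's size factors, each panel on its own scale) of Rpl7a, Rps27l, Rpl36al, Rpl23a, Rps4y2 and Rpl3l by age in weeks (horizontal axes), with a point per sample and bars for the group mean ± SD (n = 3, bars drawn down to 0 at most). PyMT samples in red lie above FVB samples in blue for Rpl7a, Rps27l and Rpl23a, below them for Rps4y2, and Rpl3l is high in single FVB samples of weeks 6, 10 and 12.

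The largest increases over the weeks were those of the paralogs Rps27l and Rpl36al, followed by Rpl17, Rpl7a and Rps16. Rpl22l1 and Rpl7l1, also paralogs, moved less, as given below. Rps27l (ENSMUSG00000036781, chromosome 9 from 66793893 to 66797323 on mm9, plus strand) encodes a close relative of the small subunit protein Rps27 and is known as a target of p53. Its normalized counts were 666, 1024 and 879.9 in PyMT against 199, 265 and 138 in FVB at week 6, and 639, 1170.1 and 455 in PyMT against 436, 248 and 154 in FVB at week 8. They were 662, 961 and 599.6 in PyMT against 166, 238 and 185 in FVB at week 10, and 788, 627 and 647 in PyMT against 279.8, 187 and 164 in FVB at week 12. Every PyMT sample was above every FVB sample, by the least at week 8. The log2 fold change over the weeks was 1.80 (SE 0.18, edgeR adjusted p = 4.75e-08), which is 3.47-fold and the largest increase of the 82 genes, and at week 8 alone it was 1.43 (SE 0.45, adjusted p = 0.0842). Rps27 itself had a log2 fold change of 0.29 and was not called. Per kilobase Rps27l stood at 179 CPM in PyMT and 52.0 in FVB, and Rps27 at 12.7 and 10.0. Since 99.7% of the stretches of Rps27 and 26.7% of those of Rps27l occur elsewhere in the genome, the level of Rps27 is the more uncertain of the pair.

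Rpl36al (ENSMUSG00000049751, chromosome 12 from 70283718 to 70285070 on mm9, minus strand) is a paralog of Rpl36a on the X chromosome. Its normalized counts were 363, 472 and 302 in PyMT against 189, 98.0 and 102 in FVB at week 6, and 287, 336 and 369 in PyMT against 131, 64.0 and 150.3 in FVB at week 8. They were 371, 160.3 and 322 in PyMT against 231, 137 and 37.6 in FVB at week 10, and 257, 337 and 404 in PyMT against 157, 185 and 172 in FVB at week 12. The groups overlapped at week 10, where PyMT replicate 2 lay below FVB replicate 1, and were apart at the other weeks. The log2 fold change over the weeks was 1.28 (SE 0.23, edgeR adjusted p = 9.85e-05), and that of Rpl36a was 1.08 (SE 0.39, adjusted p = 0.0261). Per kilobase Rpl36al stood at 74.5 CPM in PyMT and 30.7 in FVB, and Rpl36a at 37.9 and 19.1. Without the libraries rich in muscle markers Rpl36a was no longer called (log2 fold change 0.84, adjusted p = 0.268), while Rpl36al was (1.15, adjusted p = 0.00209).

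Rpl22l1, the paralog of Rpl22, and Rpl7l1, a nucleolar relative of Rpl7 that takes part in ribosome assembly, stood below their parents per kilobase in both genotypes. Rpl22l1 had 54.9 CPM per kilobase in PyMT and 38.4 in FVB beside 385 and 291 for Rpl22. Rpl7l1 had 33.9 and 22.1 beside 568 and 313 for Rpl7. The paralogs and parents were all called higher over the weeks, Rpl22l1 by a log2 fold change of 0.52 (SE 0.18, edgeR adjusted p = 0.0206), Rpl22 by 0.41 (adjusted p = 0.00356), Rpl7l1 by 0.61 (SE 0.10, adjusted p = 2.57e-05) and Rpl7 by 0.86 (adjusted p = 1.52e-06). Rpl22l1 had 263, 334 and 234 normalized counts in PyMT and 84.8, 138 and 139 in FVB at week 10, when it was called (log2 fold change 1.25, SE 0.34, adjusted p = 0.0438). At week 12 it had 187, 184 and 166 in PyMT against 144, 302 and 125 in FVB, with a log2 fold change of -0.04. The groups were apart at week 10 and overlapped at week 12, and over the weeks the call of Rpl22l1 was lost without the 7 libraries rich in muscle markers (adjusted p = 0.0766), with a log2 fold change of 0.57 that was no smaller.

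Rpl3l, Rpl39l and Rpl10l did not pass the filter and were not tested. Rpl3l, which replaces Rpl3 in the ribosomes of skeletal and heart muscle, had 457, 58.6 and 0 normalized counts in FVB at week 6, 0, 0 and 1.13 at week 8, 0, 0 and 740.2 at week 10 and 389, 3.78 and 3.28 at week 12. In PyMT it had 49.9, 4.17 and 22.1 at week 6, 8.59, 0 and 0 at week 8, 0, 1.05 and 39.2 at week 10 and 0, 1.07 and 0.924 at week 12. Its high values stood in the libraries with high skeletal muscle markers. In the 4 FVB libraries rich in these markers, whose 10 genes summed to between 341377 and 1470258 normalized counts, Rpl3l ran from 58.6 to 740.2, and in the other 8 FVB libraries, where they summed to between 176 and 26889 with up to 6 of 10 at 0, it ran from 0 to 3.78. In the 3 PyMT libraries rich in the markers, at 54605 to 91643, it ran from 4.17 to 49.9, and in the other 9 PyMT libraries from 0 to 22.1, with up to 9 of 10 markers at 0. Per kilobase Rpl3l averaged 1.21 CPM in PyMT and 15.5 in FVB, beside 117 and 64.1 for Rpl3, which is found in most cells and was higher in PyMT (log2 fold change 0.87, SE 0.12, adjusted p = 5.28e-06). Rpl39l, a copy of Rpl39 known from male germ cells, was at 0 in 6 of 12 PyMT and 4 of 12 FVB samples and reached 7.94 normalized counts in PyMT and 80.7 in FVB. Per kilobase it averaged 0.22 CPM in PyMT and 2.83 in FVB. Its parent Rpl39 was higher in PyMT by a log2 fold change of 0.94. Rpl10l, known from the testis, had no read in any library, which allows at most 3 counts of each library's total, for counting error only, and Rpl10, its X-linked parent, had a log2 fold change of 0.73 (adjusted p = 0.00251).

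The untested Rpl3l and Rpl39l had lower mean levels in PyMT, and of the tested genes only Rps4y2 was called lower over the weeks. This gene (ENSMUSG00000063171, chromosome 6 from 148303178 to 148304120 on mm9, plus strand) has a single exon, is a paralog of the X-linked Rps4x, and is listed under the symbol Rps4l in RefSeq. Its normalized counts were 9.79, 0 and 7.94 in PyMT against 46.4, 44.0 and 77.5 in FVB at week 6, and 18.1, 0 and 13.5 in PyMT against 32.8, 18.6 and 64.4 in FVB at week 8. They were 8.01, 0 and 0 in PyMT against 33.8, 62.1 and 131 in FVB at week 10, and 0, 0 and 11.1 in PyMT against 79.4, 34.0 and 56.9 in FVB at week 12. It was at 0 in 6 of 12 PyMT samples and in none of the FVB samples, and the groups were apart, though only by 18.1 against 18.6 at the nearest. With 6 PyMT samples at 0, it could pass the filter of 1 CPM in 12 samples only with FVB samples, where it was higher. Its call and this separation are therefore not independent of the filter. The log2 fold change over the weeks was -3.39 (SE 0.80, edgeR adjusted p = 0.00132), and no single week passed the threshold, with -3.19, -1.82, -4.68 and -3.79 at weeks 6, 8, 10 and 12 (adjusted p = 0.156, 0.457, 0.104 and 0.0698). In 13 of the 24 libraries counts piled up in packets. There, more genes stood at a count between 8 and 25 (the packet size, which differs between libraries) than at the counts just below it. The PyMT values of Rps4y2 lay in that range or below. Of those above 0, only 9.79 and 7.94 at week 6 came from such libraries. The values of 18.1, 13.5, 8.01 and 11.1 came from libraries in which no packets were found. With counts divided by the packet size the log2 fold change was -2.95, and without the libraries rich in muscle markers it was -3.02 and no longer called (adjusted p = 0.0507). Rps4x moved the other way, by 0.91 (SE 0.09, adjusted p = 4.08e-08).

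The proteins of the acidic stalk, Rplp0, Rplp1 and Rplp2, which recruit the translation factors to the large subunit, were all called higher over the weeks. Rplp0 had 8213, 7999 and 8877 normalized counts in PyMT and 4690.4, 6828 and 6585 in FVB at week 6, and 7898, 9547 and 9676 in PyMT against 3108, 6186 and 7099 in FVB at week 8. It had 9723, 8149 and 9029.5 in PyMT against 4496, 4153 and 4523 in FVB at week 10, and 8139, 8118 and 8855 in PyMT against 4478, 5172 and 4429 in FVB at week 12. Every PyMT sample was above every FVB sample, and the FVB samples of weeks 6 and 8 were the more spread ones. The log2 fold change of Rplp0 was 0.78 (SE 0.11, edgeR adjusted p = 5.48e-06). That of Rplp1 was 0.54 (SE 0.10, adjusted p = 8.86e-05), with 3289 to 4549 in PyMT against 2193 to 3516 in FVB, and that of Rplp2 was 0.50 (SE 0.09, adjusted p = 5.98e-05), with 991 to 1556 in PyMT against 655 to 1122 in FVB, both with overlap. Per kilobase Rplp2 stood at 163 CPM in PyMT and 116 in FVB, below Rplp1 at 899.9 and 619.

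Rpl5 and Rpl11 bind the 5S ribosomal RNA and, outside the ribosome, Mdm2. Rpl11 had 555, 517 and 587 normalized counts in PyMT and 376, 325 and 381 in FVB at week 6, and 684, 759 and 635 in PyMT against 339, 277 and 344 in FVB at week 10. Over all weeks it ran from 517 to 759 in PyMT and from 257 to 381 in FVB with no overlap, a log2 fold change of 0.93 (SE 0.08, edgeR adjusted p = 7.01e-09). Rpl5 was lower and more spread, from 227 to 576 in PyMT and from 57.9 to 318 in FVB, with overlap and a log2 fold change of 0.82 (SE 0.21, adjusted p = 0.00216).

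**Figure D5:**
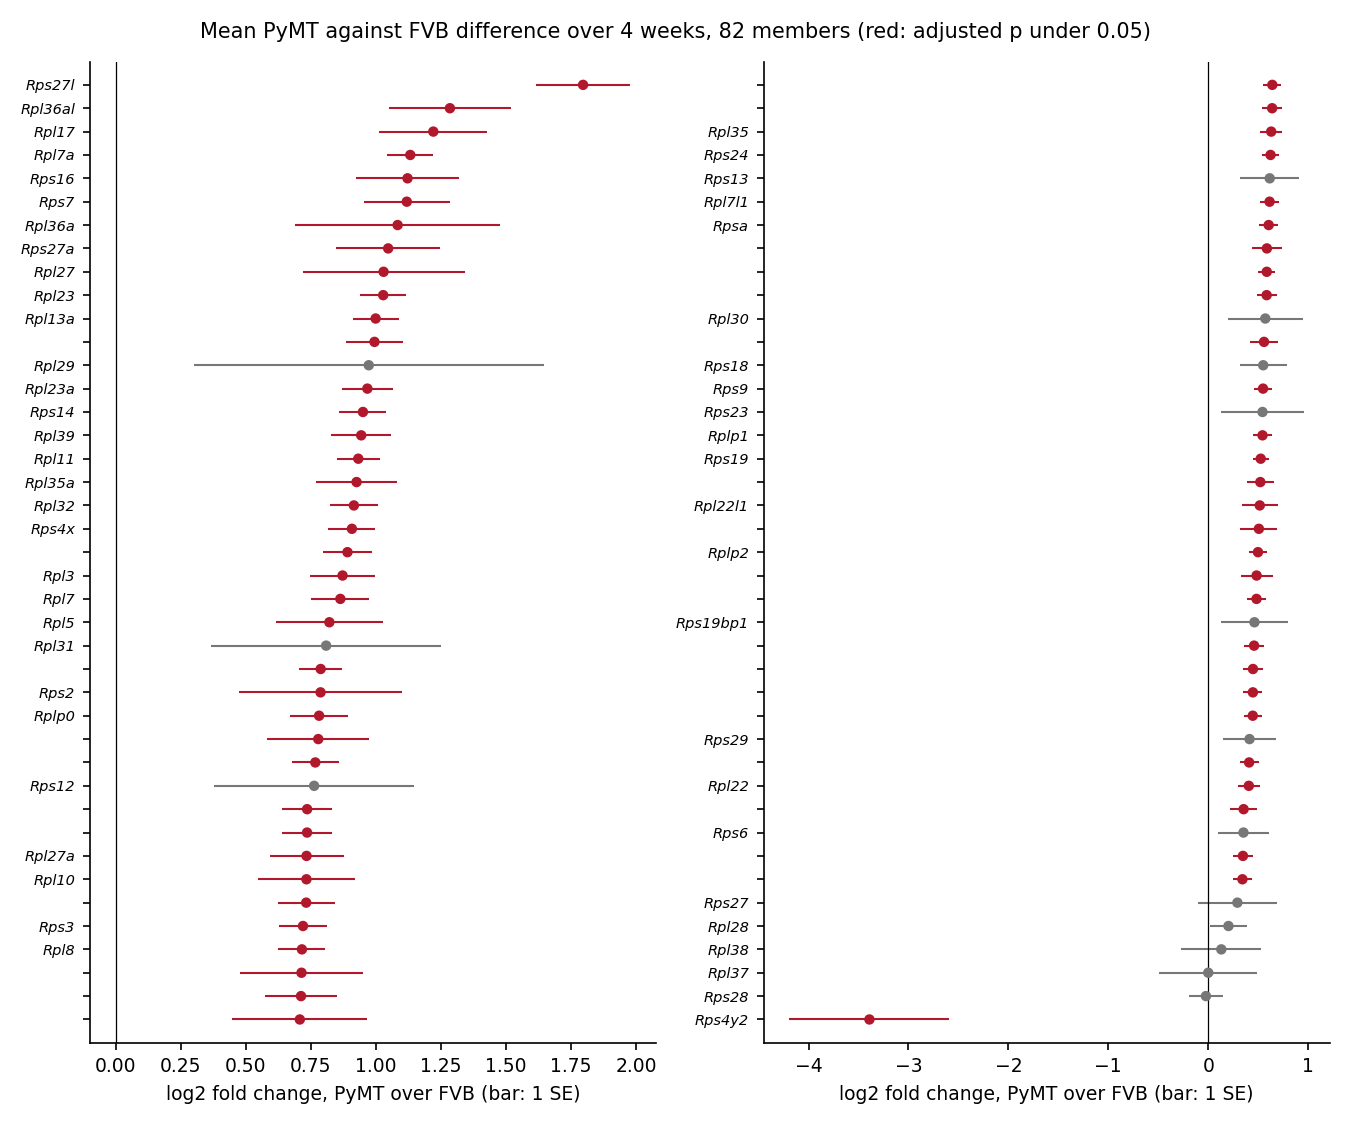
Mean log2 fold change of PyMT over FVB over 4 weeks (horizontal axes, bars of 1 SE) for the 82 tested genes in order of size, from the left panel to the right, with called genes in red and the names of genes described in the text. The panels have different horizontal scales. Rps27l is highest at 1.80, most genes lie between 0.3 and 1.2, and Rps4y2 is lowest at -3.39.

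The 15 genes that were not called over the weeks had few counts and wide errors. They were Rpl28, Rpl29, Rpl30, Rpl31, Rpl37, Rpl38, Rps6, Rps12, Rps13, Rps18, Rps19bp1, Rps23, Rps27, Rps28 and Rps29. Their median count per sample was 106 and their median SE 0.38, beside 1038 and 0.10 for the 67 called genes. Of the 60 genes with an SE under 0.2, 58 were called, and of the 22 with a larger SE, 9 were, a split that the p itself uses. Rpl29 had a log2 fold change of 0.97, Rpl31 of 0.81 and Rps12 of 0.76 without being called, so the size of the change alone did not set them apart. Rps28 was at -0.02 (SE 0.17), with 155 to 322 normalized counts in PyMT (median 231) and 153 to 383 in FVB (median 242). Rpl28 was at 0.20 (SE 0.19), and these 2 are the uncalled genes with an SE under 0.2. Rps6, the substrate of S6 kinase, was at 0.35, and Rps19bp1 was at 0.46 (SE 0.34, adjusted p = 0.269).

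Week 10 against the other weeks was compared within PyMT, within FVB, and as the change between these weeks of the difference between PyMT and FVB, in the fit of all 24 samples. No ribosomal protein gene was called in any of the 3 by edgeR, beside 0.0%, 0.0134% and 0.0067% of all genes, and DESeq2 called none either (limma none as well). At an unadjusted p under 0.05 there were 0 of 82 genes within PyMT, 5 within FVB and 3 for the difference by edgeR. Of all 14918 genes there were 326, 850 and 601 by edgeR. DESeq2 gave 0, 5 and 4 of the 82 genes. Within PyMT the median log2 change was 0.09 and 61 of 82 genes were above 0. Within FVB the median was -0.10 and 25 were above 0, and the median change of the difference was 0.21 with 61 above 0. Over all genes the medians were -0.01, -0.02 and 0.01, and 48.5%, 48.1% and 51.2% were above 0. The 3 comparisons share samples and are not independent of each other.

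Per sample, the median over the 82 genes of the log2 level, set against each gene's own mean over the 24 samples, was 0.32 ± 0.05, 0.33 ± 0.07, 0.43 ± 0.09 and 0.36 ± 0.03 in PyMT at weeks 6, 8, 10 and 12 (SD, n = 3 each). The PyMT samples of week 10 ran from 0.35 to 0.52 and those of the other weeks from 0.26 to 0.39, so they overlapped. In FVB it was -0.17 ± 0.20, -0.34 ± 0.29, -0.41 ± 0.07 and -0.36 ± 0.14, and the weeks overlapped. Of the 82 genes, 34 had their highest PyMT mean at week 10, beside 13 at week 6, 16 at week 8 and 19 at week 12, and 8 had their lowest there. In FVB 49 had their highest mean at week 6 and 11 at week 10, and the lowest mean fell at week 12 in 30 genes and at week 10 in 27. These tallies were not made for all genes. The 82 genes share the same 3 samples per group, so the tallies are no test of a week. FVB replicate 3 of week 10 is rich in skeletal muscle markers and has the lowest mean log2 level of proliferation markers of all samples, and the part of these in the FVB values of week 10 was not tested.

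No single gene passed the adjustment at week 10, which does not show that none differed. Within PyMT the smallest p values belonged to Rpl11 (log2 change 0.26, SE 0.13) and Rps9 (0.25, SE 0.14), both with an adjusted p of 1.00 by edgeR. Rps9, a small subunit protein that helps to keep decoding accurate, had 5264, 5271 and 4610.3 normalized counts in PyMT at week 10 beside 3689 to 4613 at the other weeks, so 1 of the 3 samples lay within the range of the others. Within FVB the smallest was that of Rpl23a (-0.62, SE 0.16, adjusted p = 0.440 by edgeR). Rpl23a, at the site of the large subunit where the signal recognition particle docks, had 387, 272 and 286 normalized counts in FVB at week 10, beside 399.8, 619 and 519 at week 6, 349, 513 and 423 at week 8 and 472, 556 and 489.9 at week 12. A pair of the week 10 samples were the lowest of the 12 FVB samples. In PyMT it had 793, 886 and 914 at week 10, beside 702, 997 and 787 at week 6, 859.6, 859 and 693 at week 8 and 856, 948 and 767 at week 12, with no week apart. The change of the difference at week 10 was 0.69 for Rpl23a (SE 0.22) and did not pass the adjustment by edgeR (adjusted p = 1.00).

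Replicates varied less for ribosomal protein genes than for other genes. The median SD of the log2 level within a group of 3 was 0.227 in PyMT and 0.353 in FVB over the 82 genes, and 0.438 and 0.519 over all genes. It was larger in FVB for 70 of the 82 genes (85.4%) and for 59.9% of all genes. Ribosomal protein genes have more counts than most, so the lower SD was not separated from depth.

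Other genes of the translation machinery were followed as lists. Of the 3 other parts of the cytosolic ribosome, 1 was called higher over the weeks, Gnb2l1, which encodes the small subunit scaffold Rack1 (log2 fold change 0.75, SE 0.10, edgeR adjusted p = 3.46e-06), and Fau (-0.46), a fusion of a ubiquitin-like protein with a ribosomal protein, was not called. Of 16 translation factors and other genes whose mRNAs carry pyrimidine tracts, 12 were higher and none lower, with a median of 0.48, among them Npm1 (1.08), a nucleolar chaperone, and Eef1b2 (0.88), an elongation factor subunit. Of 36 genes of ribosome biogenesis, 26 were higher and none lower, with a median of 0.56, among them Nhp2 (1.15) and Nop58 (1.06), proteins of the particles that modify ribosomal RNA. Of the 75 tested genes for mitochondrial ribosomal proteins, 10 were higher and 1, Mrpl30, lower, with a median of 0.11, among them Mrps12 (0.94) and Mrps18c (0.67). Of 14 regulators of these mRNAs, 2 were higher and 2 lower, with a median of 0.01. Eif4a1 (1.02), the helicase of the cap-binding complex, and Rps6kb1 (0.28), an S6 kinase, were higher, and Eif4ebp1 (-1.62), which blocks the cap-binding protein, and Mtor (-0.74) were lower, whereas Myc (-0.51, adjusted p = 0.0809) was not called. These counts stand beside 23.6% higher and 27.4% lower of all genes, whose median was -0.03. At week 10 against the other weeks no gene of the 5 lists was called within PyMT, within FVB or for the difference by edgeR. At most 5 of the 36 biogenesis genes had an unadjusted p under 0.05 in any of the 3. Those 5 were within FVB, where 850 of all 14918 genes had such a p.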

How the data were processed

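Gene counts were deposited by the authors as raw counts, 1 column per sample for 24 samples, without normalization. Per the paper's methods, adapters were trimmed, reads were aligned to mm9 with GSNAP and gene counts were made with HTSeq. The rows carry Ensembl gene identifiers. The annotation release, the read length and the strand setting are not given in the sources used here. Groups of 3 mice per genotype and week were taken from the labels. Total counts ran from 6969375 to 13516601, and the chi-square per gene between replicates (19.7 to 247 over 24 pairs) showed no duplicate library.

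Symbols and mm9 positions came from GENCODE M1, and starts from RefSeq on GRCm38.p6. The tools were R 4.3.3 with limma 3.58.1, DESeq2 1.42.0 and edgeR 4.0.16, and Python 3.11.15 with SciPy 1.17.1, NumPy 2.4.6, numba 0.67.0, pandas 2.3.3 and matplotlib 3.10.9. The 14918 genes that reached 1 CPM in 12 or more samples were tested by edgeR's quasi-likelihood test after TMM scaling. At single weeks the fit held the 6 samples of the week, and the mean over 4 weeks and the week 10 comparisons came from 1 fit of 24 samples in 8 groups. Benjamini-Hochberg adjustment was over all tested genes, and a gene was called at an adjusted p under 0.05 at any fold change. The SE is the size of the log2 fold change over the square root of F. For normalized counts, DESeq2's size factors divide the counts. The tests were run on simulated data with known changes first.

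The ribosomal protein genes and the lists were chosen with earlier results of these data known. Genes named were the 5 highest per length, the 5 largest called increases and decreases in each comparison or else the 2 with the smallest p, paralogs with their parents, the acidic stalk, Rpl5 and Rpl11, those below the filter, and 2 per related list. The 5 genes called at every week, the uncalled genes, Rps6, Rps28, Myc, Mtor and Rps6kb1 and the examples for repeated, overlapping and low genes were added after their values were seen. Some genes that this rule names are not reported here. Alternatives were the DESeq2 Wald test, limma voom with sample quality weights, library size only, RLE size factors, testing without the filter, the replicate number as a block, all samples in 1 fit, counts divided by packet size, the 2 libraries with the most zeros left out, and each sample left out in turn. Leaving out the 7 libraries whose skeletal muscle markers had a mean log2 level above 10 was chosen after seeing the data. Same-numbered PyMT and FVB samples had correlations of their deviations from -0.041 to 0.198, and no source says that the numbers pair them, so they were not treated as pairs.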

Additional observations from a re-analysis of the deposited data

How the results depend on the processing

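The direction of the ribosomal protein genes between PyMT and FVB kept under every alternative run, with a median log2 fold change from 0.63 to 0.95 over the weeks in 33 alternatives and from 0.38 to 0.69, 0.55 to 0.89, 0.75 to 1.09 and 0.69 to 1.05 at weeks 6, 8, 10 and 12 in 14 each. The number of genes called at a single week did not. At week 6 it was 12, and it became 20 in the fit of all 24 samples, 24 by DESeq2 (23 higher, 1 lower), and 5 with the replicate block. At week 8 it was 9, and it became 31 in the fit of all samples, 25 by DESeq2, 18 by library size only, 15 with no filter on low counts, 21 with counts divided by packet size and 3 with the replicate block. Leaving out the 7 libraries rich in skeletal muscle markers was run in the fit of all samples, so that the week 6 count went from 20 to 0, with 1 sample a genotype left, the week 8 count from 31 to 30, with no week 8 library left out, the week 10 count from 46 to 32 and the week 12 count from 41 to 27. Leaving out 1 sample gave 2 to 7 at week 6, 0 to 11 at week 8, 16 to 41 at week 10, 27 to 49 at week 12, 65 to 68 over the weeks and 0 in each week 10 comparison. Fewer samples enter these fits, and their highest counts at weeks 10 and 12 were above the 37 and 48 found with no sample left out. Calls among all 14918 genes moved as well. They were 1772, 1672, 2414 and 4143 at weeks 6, 8, 10 and 12 in the fits described first. Under the 14 alternatives of each week they reached at most 2836 at week 6 and ran from 513 to 3107 at week 8. At week 10 they ran from 1284 to 3629 and at week 12 from 2461 to 4934. The causes of all these moves were not tested. The replicate block gave 32 at week 10, 39 at week 12, 66 over the weeks and 0 in the 3 week 10 comparisons, and the replicate number alone is no sign of pairing.

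By library size only, the median of all genes moved from -0.08, -0.04, 0.01 and 0.00 to 0.19, 0.20, 0.30 and 0.32 at the 4 weeks, and from -0.03 to 0.26 over them. In the week 10 comparisons, 0 of the 82 ribosomal protein genes were called in 33 alternatives, in which up to 13, 70 and 30 of all genes were, with 0 to 4, 1 to 13 and 0 to 10 genes at an unadjusted p under 0.05 within PyMT, within FVB and for the difference. The summed share of 1.58% in PyMT and 0.802% in FVB became 1.76% and 0.893% of the counts of tested protein-coding genes, 1.77% and 0.973% without the 20 most counted genes, and 1.43% and 0.880% after TMM scaling. Of 1303 fits of 51 named results, 1231 kept direction and side of the threshold, 71 lost the threshold, 68 of them at single weeks, and 1 changed sign, the log2 fold change of Rps27, which was 0.29 and became -0.019 without the muscle-rich libraries, a gene not called in either. Over the weeks the 3 lost calls were those of Rps4y2 (log2 fold change -3.39, and -3.02 without the 7 muscle-rich libraries), Rpl36a (1.08 and 0.84) and Rpl22l1 (0.52 and 0.57), in a fit with fewer samples where 59 genes were called, all higher. The 15 uncalled genes had a median of 106 counts per sample beside 1038 for the called ones, and the part of depth in the calls was not tested.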
